A study of Mus musculus with 6 samples.

Results

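Solute carriers are membrane proteins that move nutrients, metals, ions and metabolites across the plasma membrane and the membranes of organelles, and their genes carry symbols that begin with Slc and a family number. The genes described here are the Slc genes expressed in granulocyte-macrophage progenitors (GMPs), the marrow cells that give rise to granulocytes and monocytes. They were chosen as all genes with an Slc symbol whose mean deposited value over the 6 libraries was at least 100, which gave 153 genes of 377 with an Slc symbol and of 37620 genes in the table. The level chose them, so their expression is a description. The rule did not use the difference between genotypes, but earlier results of these data were known when it was set. In 14 members the limit was reached only through the group where they were higher. Of the other Slc genes, 96 had no read, and 60 had a mean of at least 10 but below 100. The members just inside the limit were Slc46a1 and Slc27a1, each at a mean of 103, and Slc46a3 at 105. Just outside were Slc2a9 at 98.4, Slc41a1 at 95.8 and Slc23a2 at 92.8.

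The 6 RNA-seq libraries came from GMPs of C57BL/6 mice, 3 labelled as knockout for Bap1 (Bap1 f/f with Mx1-Cre) and 3 from control littermates (Bap1 f/f without Cre). Bap1 encodes a nuclear deubiquitinase of histone H2A, and both groups carried its floxed alleles and received polyI:polyC, an interferon inducer that turns on the Mx1 promoter driving Cre. The labels give an age of 65 days with polyI:polyC at 42 days, and the design text of the series gives an earlier age for the injections. Cells were sorted as Lineage-negative, c-Kit-positive, Sca1-negative and CD34-positive with an Fc receptor stain. Cre was carried by 1 group only, and it acts in every interferon-responsive cell, so an effect of Cre or of Bap1 deletion in other cells cannot be told apart from one in GMPs. The labels do not say that each library came from its own mouse, and p-values measure the spread between libraries.

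Gene reads came to 19.5, 22.8 and 24.1 M in the knockout-labelled libraries and 24.1, 25.8 and 25.9 M in the control libraries. Bap1 itself was counted at 2671, 3309 and 2968 in the knockout-labelled libraries and at 1343, 998 and 1076 in the control libraries, which goes against the label. A count over the whole gene includes exons outside the deleted part and does not check the deletion, so higher and lower below refer to the labels alone. The GMP granule gene Mpo averaged 635305 normalized counts in knockout-labelled and 509919 in control libraries, and all 9 GMP and gate genes were read in both groups. The gate gene Cd34 was 2.90-fold lower in knockout-labelled libraries (3963 ± 244 against 11499 ± 297, SD, n = 3 each). Genes called by the test used throughout (limma adjusted p under 0.05) made up 26.8% of all tested genes. Of the 9 GMP and gate genes 3 were higher (Kit, Elane and Ctsg) and 2 lower (Cd34 and the Fc receptor gene Fcgr3, 1.71-fold), and Mpo was not called. The calls of Kit and Elane were lost with some library left out. Marker lists of other cell types held the following. Of 12 tested erythroid genes 7 were higher and 0 lower, with a summed level of 3397 to 7306 in knockout-labelled and 1367 to 2076 in control libraries. Of 10 macrophage genes 2 were higher and 4 lower, with a median log2 fold change of -1.33. Their sum, most of it Vcam1 in the knockout-labelled libraries, was 19213 to 24293 against 7937 to 8322. Without Vcam1 it was 3899.9 to 4354 against 4339.8 to 4753. Plasmacytoid dendritic genes had 1 higher and 5 lower of 6 (863 to 1037 against 2436 to 2795), and B lymphoid genes 0 and 6 of 6 (1103 to 1425 against 2122 to 2531), with Vpreb3 and Pax5 at 0 in all knockout-labelled libraries. Mast and basophil genes had 1 higher and 4 lower of 7 (20059 to 29955 against 50704 to 60971), eosinophil genes 0 and 3 of 5 (29895 to 33441 against 46356 to 55324), megakaryocyte genes 0 and 2 of 6 (1142 to 3028 against 1881 to 3278), and neutrophil granule genes 1 and 0 of 6 (90005 to 227115 against 96207 to 143371). Of the 4 tested genes that the gate excludes, 0 were higher and 2 lower (218 to 527 against 762 to 981). The neutrophil granule and megakaryocyte sums overlapped between the groups. The part of these lists in the carrier results was not tested. In bulk RNA, fewer cells of a type and less RNA per cell cannot be told apart.

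Carriers work in sets. Glucose is carried by SLC2 proteins, amino acids by the SLC1, SLC6, SLC7, SLC36 and SLC38 families, and metals into the cytosol by SLC11, SLC31 and SLC39 and out of it by SLC30 and SLC40. The SLC25 family exchanges metabolites across the inner mitochondrial membrane, and SLC35 carriers feed nucleotide sugars to the Golgi. Progenitors that divide and fill granules draw on amino acid, nucleoside and iron supply, and several carriers in myeloid cells sit in lysosomal or granule membranes. The 153 members were grouped by family into 33 mitochondrial, 21 amino acid, 19 metal, 14 inorganic ion and pH, 13 nucleotide sugar, 9 vitamin, choline and fatty acid, 8 glucose, 5 nucleoside and 5 monocarboxylate carriers. A further 22 were left as other, among them the pseudogene Slc25a5-ps, and 4 are only named after a carrier, such as Slc9a3r2, a scaffold protein of a sodium/proton exchanger.

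Carriers of nearly every class included genes that were higher and genes that were lower in the knockout-labelled libraries. A gene is called here at a limma adjusted p under 0.05 over all 14391 tested genes. By that rule 24 members were higher, 24 were lower and 105 were not called, so 31.4% of the members were called. Over all tested genes 26.8% were called, 11.8% higher and 15% lower, and over the 10359 tested genes that also reached a mean of 100 it was 29.1%, 13.1% higher and 16% lower. Among members 15.7% were higher and 15.7% lower, so the share called was near the background. Called and at least 2-fold apart were 11 of the 153 members higher and 13 lower. Of all tested genes 4.68% and 8.22% met the same rule, and of those at a mean of at least 100, 3.35% and 6.59%. The shares among members were above these, and this was not tested. The median log2 fold change was -0.07 over the members and 0.00 over tested genes at a mean of at least 100, and the median size of a change, whatever its sign, was 0.36 and 0.31. Values of the 3 libraries of a group did not overlap with those of the other in 75 members (49%), beside 42.9% of all tested genes and 45.4% of those at a mean of at least 100. In 14 members 1 group's mean was under 100 (control in 4, knockout-labelled in 10), so these passed the level limit through the group where they were higher. They supply 10 of the 48 calls, those of Slc27a3 and Slc9a3r2 (higher) and of Slc36a2, Slc7a7, Slc2a6, Slc9a9, Slc16a13, Slc45a3, Slc46a3 and Slc5a6 (lower). Among the 139 members at the limit in both groups 38 were called, 22 higher and 16 lower (27.3%), beside 26.8% of the 9758 tested genes at the limit in both groups. Without control replicate 3 the counts were 19 higher and 15 lower, and without knockout replicate 1 they were 31 and 25. Of the 48 calls, 32 held with every library left out in turn.

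**Figure D1:**
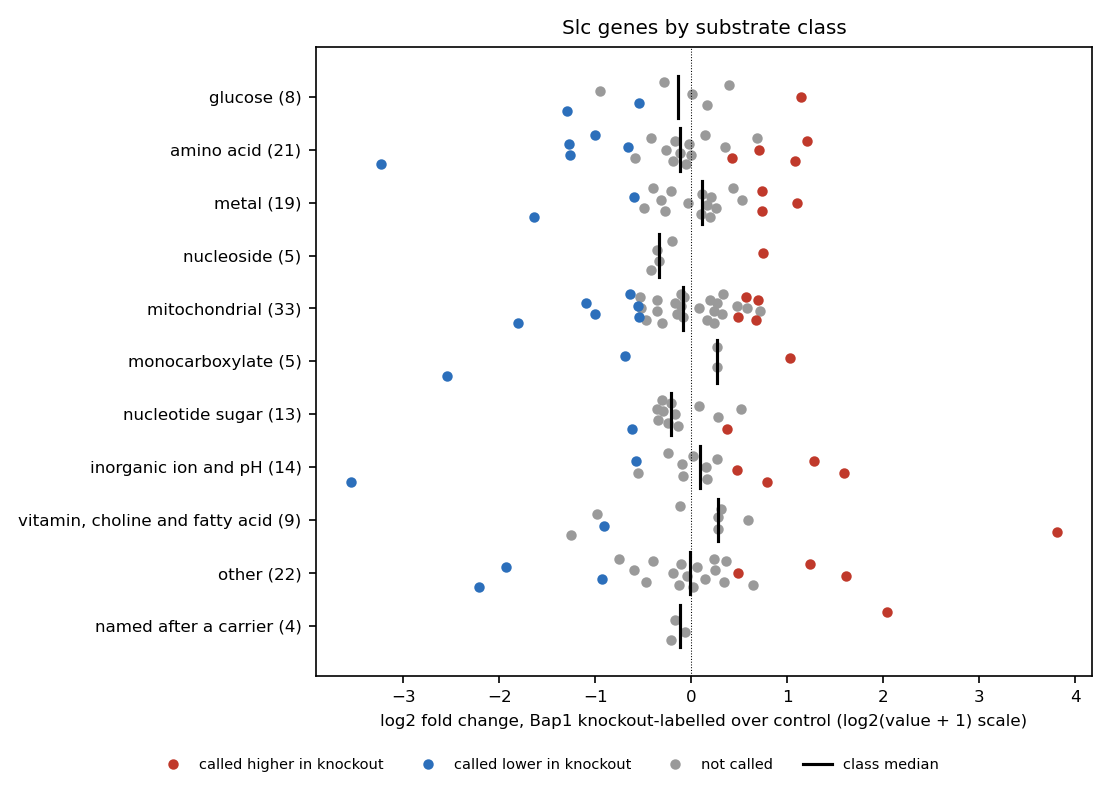
Log2 fold change of each of the 153 Slc genes, knockout-labelled over control (x axis, log2(value + 1) scale), by substrate class (number of genes in brackets). Each point is a gene, coloured by its limma call, and black bars are class medians, which lie between -0.33 and 0.28 while single genes reach -3.54 and 3.81.

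**Figure D2:**
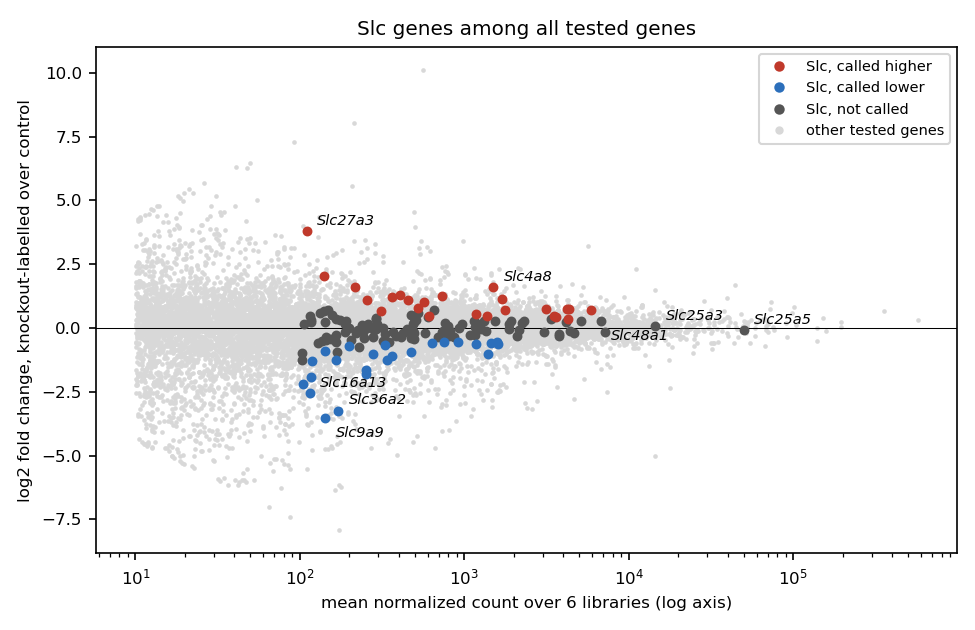
Log2 fold change (y axis) against mean normalized count over 6 libraries (x axis, log axis) for all 14391 tested genes in grey and the 153 Slc genes in colour. Slc25a5, at a mean of 49977, had a change near 0, and the largest changes were in genes with means of 100 to 200, such as Slc27a3 and Slc9a9.

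Upstream sequence was read from RefSeq (GRCm38.p6), in which 114 of the 153 members matched by symbol, for the 250 bases before the first listed start. The E-box CACGTG, which factors of the MYC, USF and TFE families can bind and which reads alike on both strands, was in 15 of the 114 (13.2%), in 9.08% of 7411 genes with a mean of at least 100 and in 6.05% of all 27025 genes with a listed start. Of the called members it was in 3 of 16 that were higher and 2 of 18 that were lower. The amino acid response element TGATGNAA was in 4 members (3.51%, beside 1.85% of genes at that level), of which 1 of 15 amino acid carriers, and the metal response element, searched as TGCACNC and as its variant spelling TGCGCNC, in 33 (28.9% beside 30.3%), of which 5 of 15 metal carriers. The motif of the erythroid and mast cell transcription factors of the GATA family, AGATAA, was in 8 (7.02% beside 5.88%). All were searched on both strands, and no motif contains another. The 5 called members with an E-box were Slc22a4, Slc25a1 and Slc41a3, higher, and Slc25a14 and Slc25a36, lower. The windows of Slc41a3 and Slc25a14 are shown because their calls held with every library left out, in opposite directions, with the E-box in capitals. They lie at chr6:90618996-90619245 (plus strand) for Slc41a3, where the E-box starts 213 bases before the start, and at chrX:48623198-48623447 (plus strand) for Slc25a14, where it starts 54 bases before the first of 3 listed starts.
Slc41a3: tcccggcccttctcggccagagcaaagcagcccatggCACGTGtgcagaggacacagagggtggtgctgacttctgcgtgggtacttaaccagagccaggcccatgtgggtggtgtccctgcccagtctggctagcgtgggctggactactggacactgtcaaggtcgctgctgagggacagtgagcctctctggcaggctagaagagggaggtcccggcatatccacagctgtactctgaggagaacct
Slc25a14: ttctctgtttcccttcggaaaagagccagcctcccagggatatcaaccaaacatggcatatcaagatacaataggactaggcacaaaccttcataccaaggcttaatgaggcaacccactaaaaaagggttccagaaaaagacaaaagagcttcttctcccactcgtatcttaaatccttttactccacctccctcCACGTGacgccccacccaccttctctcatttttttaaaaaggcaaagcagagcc
A match gives only the letters of the window and does not show that a factor binds there.

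Mitochondrial carriers held the most abundant member, the ADP/ATP translocase Slc25a5, whose level did not differ by the test, and changes in both directions among less abundant ones. Slc25a5 held 22.8% of all reads of the members, with 49861, 50084 and 45728 normalized counts in knockout-labelled libraries and 53636, 49419.8 and 51131 in control libraries. These ranges overlapped and the gene was not called (log2 fold change -0.08, SE 0.11, limma adjusted p = 0.635). Per kb of exon Slc25a5 stood at 30362 normalized counts over all libraries, against 3062 for its paralog Slc25a4 and 2618 for the phosphate carrier Slc25a3. Close copies such as the pseudogene Slc25a5-ps can share reads with these genes, and reads aligned to several places were kept apart from the gene counts, so the levels of Slc25a5 and Slc25a4 are uncertain. Of the 33 mitochondrial genes 4 were higher and 6 lower, beside 11.8% and 15% of all tested genes, and 23 were not called. The median log2 fold change of the class was -0.08, or 0.01 without knockout replicate 2.

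Slc25a14 (ENSMUSG00000031105), a carrier of the uncoupling protein group, had the largest change of this class, with 138, 102 and 100.5 normalized counts in knockout-labelled libraries and 402, 346 and 437 in control libraries. All knockout-labelled values lay below all control values, a 3.48-fold lower level (log2 fold change -1.80, SE 0.22, limma adjusted p = 1.93e-04). Slc25a24, which exchanges ATP-Mg for phosphate under calcium control, had 221, 207 and 265 against 583, 444 and 461, and fell by 1.10 on the log2 scale (SE 0.19, limma adjusted p = 0.00176). Slc25a35, a carrier whose substrate is little known, was at 185 ± 22.3 in knockout-labelled and 370.3 ± 36.8 in control libraries (SD, n = 3 each; limma adjusted p = 0.00351). In the annotation 31.3% of its exon length overlaps Rangrf, so these reads may belong to either gene. The carnitine/acylcarnitine carrier Slc25a20, which admits fatty acids for oxidation, was at 742 ± 14.2 against 1096 ± 190.0 and fell by 0.55 (limma adjusted p = 0.023). That call was lost without knockout replicate 2 (adjusted p = 0.0502), control replicate 1 (0.1) or control replicate 3 (0.108).

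On the higher side stood Slc25a17, a family member that sits in the peroxisome and carries CoA and other cofactors. It had 7941, 7808 and 6075 normalized counts in knockout-labelled libraries and 4754, 4271 and 4349.8 in control libraries, 1.62-fold more with no overlap (log2 fold change 0.70, SE 0.13, limma adjusted p = 0.00223). The citrate carrier Slc25a1, which supplies citrate for lipid synthesis in the cytosol, was at 1611 ± 206 against 1141 ± 30.1 (limma adjusted p = 0.0182), a call lost without knockout replicate 2 or any control library (adjusted p = 0.0557 to 0.0744). Calls of Slc25a53, little studied, and of Slc8b1, the mitochondrial sodium/calcium exchanger, were as fragile. Slc25a53 was at 383 ± 64.8 against 237 ± 12.8 (limma adjusted p = 0.0235, and 0.0549 to 0.0867 without knockout replicate 1 or 2 or any control library). Slc8b1 was at 1417 ± 313 against 938 ± 91.8 (0.0293, and 0.0715 to 0.106 without knockout replicate 2 or 3 or control replicate 1 or 2).

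None of 3 SLC25 carriers of iron and heme synthesis was called. Slc25a37 (mitoferrin-1), which brings iron to the mitochondria of erythroid cells, was at 1029 ± 124 in knockout-labelled and 915 ± 115 in control libraries (limma adjusted p = 0.443). Its paralog Slc25a28 (mitoferrin-2) was at 143, 133 and 126 against 107, 83.1 and 98.9, with no overlap but no call (adjusted p = 0.19), and the glycine carrier of heme synthesis Slc25a38 at 571 ± 157 against 450.3 ± 69.7 (0.288). Both aspartate/glutamate carriers of the malate shuttle had lower means in knockout-labelled libraries, Slc25a12 at 3403 ± 509.9 against 4166 ± 149 (0.103) and Slc25a13 at 767 ± 146 against 972 ± 63.7 (0.122). Slc25a12 passed without knockout replicate 2 (0.0374) and Slc25a13 without knockout replicate 3 (0.0282).

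Amino acid carriers included genes of both directions. Of 21 genes, 4 were higher and 5 lower, beside 11.8% and 15% of all tested genes, and 12 were not called. Of the lower ones, Slc36a2 and Slc7a7 reached the level limit only through the control group. The median log2 fold change of the class was -0.12. That median was -0.24 without knockout replicate 3 and 0.01 without control replicate 3. Slc36a2 (ENSMUSG00000020264), a proton-coupled carrier of glycine, alanine and proline, had 33.1, 52.1 and 18.3 normalized counts in knockout-labelled libraries and 282, 359 and 283 in control libraries. The groups were far apart, and the gene was 9.40-fold lower (log2 fold change -3.23, SE 0.36, limma adjusted p = 1.01e-04). Its paralog Slc36a4 moved the other way, with 694, 575 and 582 against 265, 331 and 277, or 2.12-fold higher (log2 fold change 1.08, SE 0.17, limma adjusted p = 0.00101). Slc36a1, a lysosomal carrier of the same family, was at 203 ± 30.8 against 236 ± 69.2 (limma adjusted p = 0.613).

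Among sodium-coupled neutral carriers, Slc38a2, an import carrier that cells raise when amino acids run short, had 952, 839 and 988 normalized counts in knockout-labelled libraries and 1832, 1880.4 and 1842 in control libraries. It fell by 1.00 on the log2 scale (SE 0.13, limma adjusted p = 2.05e-04). The paralog Slc38a1 was not called (1858 ± 453 against 1885 ± 126, limma adjusted p = 0.865). Slc38a9, the lysosomal arginine sensor of the growth kinase mTORC1, was at 257 ± 27.3 against 405 ± 17 and fell by 0.66 (limma adjusted p = 0.0185), a call lost without knockout replicate 2 or any control library (adjusted p = 0.0503 to 0.0712). The aromatic amino acid carrier Slc16a10 fell by 1.27 (203 ± 67.6 against 478 ± 47.2, limma adjusted p = 0.00254).

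CD98 heterodimers pair the heavy chain Slc3a2 with light chains of the SLC7 family. Slc3a2 was the most abundant amino acid gene per kb of exon (951 normalized counts per kb), with 3229, 3843 and 4234 normalized counts in knockout-labelled libraries and 2906, 3252 and 2676 in control libraries. The lowest knockout-labelled value lay below the highest control value, and the gene was not called (log2 fold change 0.35, SE 0.13, limma adjusted p = 0.0701), though it passed without knockout replicate 1 (0.0191). The large neutral amino acid light chain Slc7a5 had 619, 774 and 1017 against 337, 551 and 617. The groups did not overlap, and its adjusted p was 0.0536 (log2 fold change 0.69, SE 0.24), with a call without knockout replicate 1 (0.0316) or control replicate 3 (0.0435). Slc7a7, the light chain that exports arginine and lysine, fell by 1.26 (94.9, 85.4 and 115 against 232, 261 and 214, SE 0.24, limma adjusted p = 0.00275). Slc7a6, a light chain of the same transport type, was at 936 ± 164 against 926 ± 13.7 (limma adjusted p = 0.996). Slc7a8 was at 70.4, 70.8 and 189.6 against 168, 137 and 139.9, with only knockout replicate 3 above the controls (adjusted p = 0.272, and 0.0206 without that library). The cystine light chain Slc7a11 fell below the level limit, at 41.5 ± 6.96 against 49.5 ± 13.8 normalized counts (SD, n = 3 each; limma adjusted p = 0.699).

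The glutamine carrier Slc1a5, which supplies the glutamine that CD98 heterodimers exchange, had 3878, 4217 and 4266 normalized counts in knockout-labelled libraries and 2796, 3243 and 3131 in control libraries. It was 1.35-fold higher (log2 fold change 0.43, SE 0.11, limma adjusted p = 0.0155). Leaving out control replicate 1 (0.0835) or 3 (0.0559) ended that call. The taurine carrier Slc6a6 had 1694, 2193 and 2738 against 1343, 1320.5 and 1309, all 3 above the controls (log2 fold change 0.71, SE 0.16, limma adjusted p = 0.00796). Slc7a4, a relative of the cationic amino acid carriers with no well-defined substrate, had 393, 524 and 615 against 182, 203 and 275 and was 2.31-fold higher (limma adjusted p = 0.00258). In the annotation 13.3% of its exon length overlaps P2rx6.

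**Figure D3:**
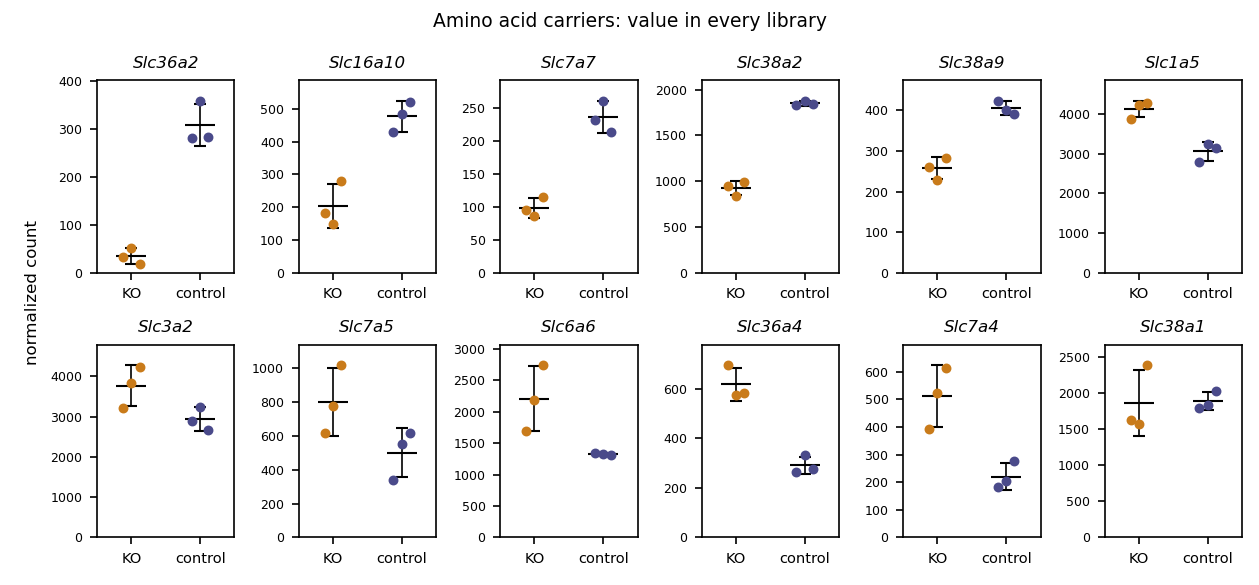
Normalized count (y axis, from 0) of 12 amino acid carriers in each knockout-labelled (KO) and control library. Points are libraries and bars the mean ± SD (n = 3 each); Slc36a2, Slc16a10, Slc7a7, Slc38a2 and Slc38a9 lie lower in KO, Slc1a5, Slc6a6, Slc36a4 and Slc7a4 higher, and Slc38a1 overlaps.

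A list of 20 genes of the amino acid response, through which the factor ATF4 raises carriers and synthesis enzymes when amino acids are scarce, held 7 genes that were higher and 2 that were lower, beside 11.8% and 15% of all tested genes. Atf4 itself was at 3641 ± 219 in knockout-labelled and 3648 ± 364 in control libraries (limma adjusted p = 0.999). The asparagine synthetase gene Asns was at 4109.7 ± 809.7 against 2560.0 ± 277 (adjusted p = 0.00715), and Stc2, a secreted glycoprotein gene, had 148, 136 and 129 against 30.2, 11.5 and 2.67 (0.00189). Shmt2, a mitochondrial enzyme of serine use, was at 5729 ± 907 against 4216 ± 173 (0.0314, a call lost without knockout replicate 2 or 3 or any control library, with p at most 0.121). Of the 9 calls, those of Trib3, Psph, Shmt2, Mthfd2, Cth and Gpt2 were lost with some library left out. Of the higher genes, Cbs (47.5 ± 26 against 3.16 ± 4.73) and Cth (48.3 ± 18.8 against 7.41 ± 7.13) had control means under 10. They entered the test through the knockout-labelled group, so their calls are a description.

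Among glucose carriers the glucose-6-phosphate carrier of the endoplasmic reticulum was higher, a lysosomal and a SWEET carrier were lower, and the plasma membrane carriers GLUT1 and GLUT3 were not called. Slc37a4 (ENSMUSG00000032114), the glucose-6-phosphate carrier, whose loss causes neutropenia in human glycogen storage disease, had 2067, 2423 and 2552 normalized counts in knockout-labelled libraries and 1122, 986 and 1064 in control libraries. No values overlapped, and the gene was 2.21-fold higher (log2 fold change 1.15, SE 0.13, limma adjusted p = 1.05e-04). The other members of the class included the facilitative carrier Slc2a1 (GLUT1), at 238, 319 and 437 against 302, 259 and 185, where the groups overlapped (limma adjusted p = 0.289). Slc2a3 (GLUT3), the high-affinity carrier, had 71.5, 102 and 186 against 252, 174 and 226, where 1 knockout-labelled value lay above the lowest control, and missed the threshold (log2 fold change -0.95, SE 0.33, limma adjusted p = 0.0549). Without knockout replicate 3, its highest library in that group, the adjusted p was 0.00819. Slc2a6, a lysosomal family member of macrophages, had 81.1, 76 and 51.4 against 155, 179.6 and 173 and fell by 1.29 (SE 0.28, limma adjusted p = 0.00574). Slc50a1, the most abundant of the class per kb of exon and a sugar carrier of the SWEET family, was at 1302 ± 217 against 1879 ± 48 and fell by 0.54 (limma adjusted p = 0.0145), although leaving out control replicate 1 (0.0527) or 3 (0.0559) ended the call. In all, 1 of the 8 genes was higher and 2 were lower, beside 11.8% and 15% of all tested genes.

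The hexokinases that trap glucose inside the cell, with Txnip, Arrdc4 and the sugar-responsive factors Mlx and Mlxip, formed a list of 7 genes. Beside 11.8% and 15% of all tested genes, 0 of these were higher and 1 was lower. That was Hk2, with 316, 375 and 368 normalized counts in knockout-labelled libraries and 678, 744 and 554 in control libraries (log2 fold change -0.89, SE 0.17, limma adjusted p = 0.0032), and Hk1 and Hk3 were not called. Among the 5 monocarboxylate carriers, 1 was higher and 2 were lower, beside the same 11.8% and 15%. Slc16a3 (MCT4), which exports lactate, had 473, 982 and 886 against 361, 376 and 357 and was 2.04-fold higher, with knockout replicate 1 nearest the controls (log2 fold change 1.03, SE 0.24, limma adjusted p = 0.00938). Slc16a1 (MCT1), the widespread lactate carrier, was at 1255 ± 242 against 1027 ± 72.4 (limma adjusted p = 0.23). Slc16a13, a monocarboxylate carrier relative, had 44.8, 35.4 and 21.7 against 212, 204 and 169 and was 5.82-fold lower (limma adjusted p = 3.01e-04).

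The mitochondrial pyruvate carrier, outside the Slc symbols, changed in its 2 subunits in opposite directions. Mpc1 had 2024, 1373 and 1454 normalized counts in knockout-labelled libraries and 754, 941 and 867 in control libraries (log2 fold change 0.90, SE 0.17, limma adjusted p = 0.00238). Mpc2 had 1529.7, 1459 and 1285 against 2131, 2063 and 2105 (log2 fold change -0.56, SE 0.12, limma adjusted p = 0.00551). They belong to a list of 31 carriers that the SLC nomenclature includes under other symbols. Of the 25 tested, 7 were higher and 6 lower, beside 11.8% and 15% of all tested genes. The calls of Ucp2, Mtch2, Sfxn4, Spns3 and Cln3 were lost with some library left out. Also in it were the phosphate exporter Xpr1, which fell by 1.70 (105 ± 24.6 against 339 ± 33.5, limma adjusted p = 4.35e-04), the sideroflexin Sfxn2, which fell by 1.41 (230.3 ± 12.8 against 616 ± 96.7, 2.43e-04), and the erythroid gene Rhag, which was 4.68-fold higher (1273 ± 760.5 against 249 ± 83.1, 0.00129).

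Metal carriers included both exporters and importers with changes. Slc40a1, ferroportin, the only known cellular iron exporter, had 3700.5, 4545 and 3514 normalized counts in knockout-labelled libraries and 2428, 2229 and 2354 in control libraries. All 3 lay above the controls, 1.67-fold higher (log2 fold change 0.74, SE 0.13, limma adjusted p = 0.00149). Ferroportin is a known product of macrophages and erythroid cells. Erythroid marker genes summed to 3397 to 7306 in knockout-labelled and 1367 to 2076 in control libraries, with 7 of 12 higher and 0 lower. Of 10 macrophage genes Vcam1 and Cd68 were higher, while Adgre1, Csf1r, C1qb and C1qc were lower, and without Vcam1 the list summed to 3899.9 to 4354 against 4339.8 to 4753. The part of either list in this result was not tested. The ferrous iron importer Slc11a2 was at 457 ± 60.8 against 531 ± 67.9 (limma adjusted p = 0.392), and its phagosomal relative Slc11a1 stood below the level limit, at 11.7 ± 5.23 against 28.1 ± 11.9 (0.147). Slc48a1, which returns heme from lysosomes to the cytosol and was the most abundant metal gene per kb of exon (2455 normalized counts per kb), had 6482, 7925 and 7727 against 5871, 6344 and 6169. The groups did not overlap, yet the gene was not called (log2 fold change 0.26, SE 0.11, limma adjusted p = 0.113, and 0.0236 without knockout replicate 1). Among 13 genes of iron handling 1 was higher and 1 lower, beside 11.8% and 15% of all tested genes. Abcb10, a mitochondrial carrier needed for heme synthesis, was 2.00-fold higher (1177 ± 246 against 588 ± 113, limma adjusted p = 0.00249), and the heme oxygenase gene Hmox1 fell by 1.09 (106 ± 7.79 against 231 ± 51, 0.00763). The transferrin receptor Tfrc was at 2063 ± 377 against 1563 ± 274 (0.103).

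Zinc carriers of the SLC39 family bring zinc into the cytosol and those of the SLC30 family move it out. Slc39a10 (ENSMUSG00000025986), a plasma membrane importer known for its role in blood cell survival, had 162, 101 and 107 normalized counts in knockout-labelled libraries and 373, 335 and 429 in control libraries. It was 3.11-fold lower with no overlap (log2 fold change -1.64, SE 0.24, limma adjusted p = 5.81e-04). Slc39a11, an importer of the same family, had 4931, 5864 and 4965 against 2985, 3136 and 3271 and was 1.67-fold higher (limma adjusted p = 8.33e-04). None of the 4 SLC30 members (Slc30a5, Slc30a6, Slc30a7 and Slc30a9) was called, with adjusted p from 0.164 to 0.891, and Slc30a1, the plasma membrane exporter, was below the level limit at 26.6 ± 15.9 against 36.7 ± 14.4 (0.496). Of the zinc-buffering list, both metallothioneins were higher. Mt1 had 1726, 3569 and 2806 against 1151, 773 and 739.8 (2.97-fold, limma adjusted p = 8.77e-04), and Mt2 had 100.3, 86.4 and 319.7 against 17.8, 10.5 and 17.8 (8.87-fold, 0.00104). The zinc-sensing factor Mtf1 was at 1379 ± 167 against 1097 ± 104 (0.107). The copper importer Slc31a1 had 1168, 1129 and 1198 against 1748, 1526 and 2002 and fell by 0.59 (SE 0.13, limma adjusted p = 0.00797), although leaving out control replicate 3 ended the call (0.0557). Slc41a3, a relative of magnesium carriers, had 269.9, 303 and 489 against 196, 129.9 and 156 (log2 fold change 1.10, SE 0.26, limma adjusted p = 0.00987).

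Nucleoside carriers salvage nucleosides and bases for nucleotide synthesis. The concentrative carrier Slc28a2 (ENSMUSG00000027219), which takes up purine nucleosides with sodium, was the only 1 of 5 that was called. It had 4617, 4655 and 7129 normalized counts in knockout-labelled libraries and 3343, 3007 and 3212 in control libraries, 1.68-fold higher with knockout replicate 3 farthest out (log2 fold change 0.75, SE 0.16, limma adjusted p = 0.00557). Over all tested genes 26.8% were called. The log2 fold changes of the other 4 nucleoside carriers ran from -0.42 to -0.20. The equilibrative carrier Slc29a1 had 1659.8, 1745 and 2174 against 2156, 2324 and 2499 (limma adjusted p = 0.0918, and 0.0221 without knockout replicate 3). The lysosomal carrier Slc29a3 had 305, 557 and 426 against 570.4, 553 and 552 (0.161, and 0.0449 without knockout replicate 2). The purine base carrier Slc43a3 had 4383, 4716 and 3919 against 5078, 4969 and 4832, without overlap and without a call (0.219).

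**Figure D4:**
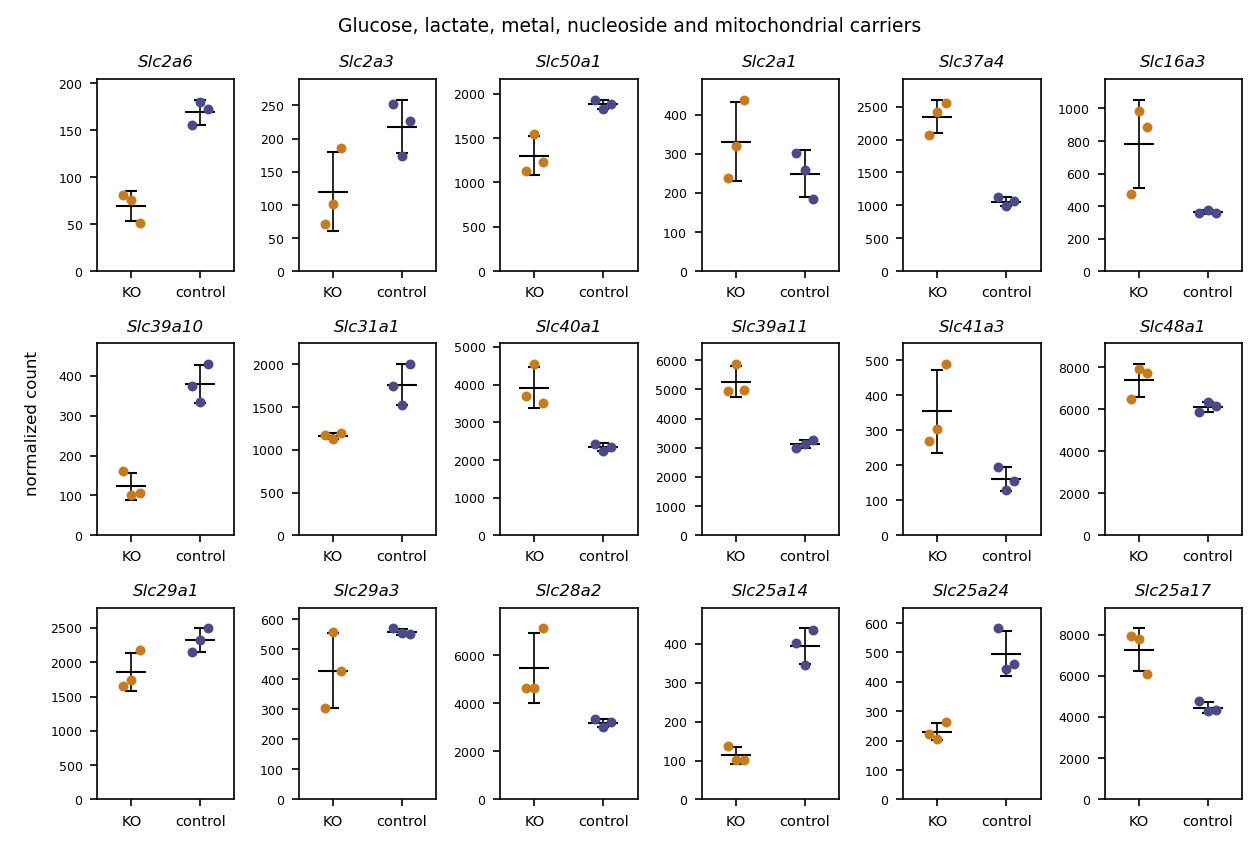
Normalized count (y axis, from 0) of 18 glucose, lactate, metal, nucleoside and mitochondrial carriers in each knockout-labelled (KO) and control library. Points are libraries and bars the mean ± SD (n = 3 each); the KO points of Slc37a4, Slc40a1, Slc39a11 and Slc28a2 lie above all controls and those of Slc2a6, Slc39a10 and Slc25a14 below.

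The largest fitted changes of the members in each direction were those of Slc27a3 and Slc9a9, which both reached the level limit only through the group where they were higher, so their size is a description. Slc27a3 (ENSMUSG00000027932), a fatty acid transport family member that activates fatty acids to their CoA esters, had 133, 246 and 231 normalized counts in knockout-labelled libraries and 34.7, 7.64 and 8.02 in control libraries. It was 14.03-fold higher (log2 fold change 3.81, SE 0.54, limma adjusted p = 4.77e-04), and its log2 fold change was 4.48 without control replicate 1, the highest control. Slc9a9 (ENSMUSG00000031129), an endosomal sodium/proton exchanger, had 34.1, 8.33 and 30.8 against 217, 216 and 349 and was 11.66-fold lower (log2 fold change -3.54, SE 0.48, limma adjusted p = 3.64e-04). Without knockout replicate 2, its lowest library, the log2 fold change was -2.93. Slc4a8 (ENSMUSG00000023032), a sodium-coupled bicarbonate carrier, had 2169.7, 2231 and 2325 against 879, 677 and 692 and had the smallest adjusted p of the members (log2 fold change 1.59, SE 0.14, limma adjusted p = 1.97e-05). The phosphate importer Slc20a2 was at 579 ± 85.7 against 237 ± 13.3 and was 2.42-fold higher (4.77e-04), and its paralog Slc20a1 at 519 ± 136 against 451 ± 30.9 (0.553). Of 14 inorganic ion and pH genes 4 were higher and 2 lower, beside 11.8% and 15% of all tested genes.

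Of 13 nucleotide sugar carriers 1 was higher and 1 lower, beside 11.8% and 15% of all tested genes. The same shares apply to the vitamin, choline and fatty acid class below. The CMP-sialic acid carrier Slc35a1 had 1010.2, 893 and 862 normalized counts in knockout-labelled libraries and 1439, 1408 and 1404 in control libraries and fell by 0.62 (SE 0.13, limma adjusted p = 0.00427). Slc35a4 was at 4808 ± 632 against 3705 ± 65.4 (0.0447), and its call was lost in 5 of the 6 fits that left out a library (0.0911 to 0.14), all but that without knockout replicate 1, and with the replicate number as a block (0.0752). In the vitamin, choline and fatty acid class 1 of 9 genes was higher (Slc27a3) and 1 lower, the biotin and pantothenate carrier Slc5a6, at 98.5 ± 17.7 against 185 ± 15.9 (0.0195, and 0.0814 and 0.0692 without control replicate 2 or 3). The reduced folate carrier Slc19a1 was at 2132 ± 559 against 1726 ± 192 (0.268). Among the genes left as other, Slc35f2, an orphan of the same family, was 3.05-fold higher (324 ± 133 against 107 ± 46.3, limma adjusted p = 0.00591), and the lysosomal carrier Slc46a3 was 4.62-fold lower (36.3, 29.2 and 42.3 against 129, 151 and 242, 7.49e-04). Slc9a3r2, named after a carrier, had 159, 344 and 179 against 56.9, 59.2 and 40.1 (4.11-fold, 0.00126).

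Summed over a class, levels differed less than those of single genes. The 14 inorganic ion and pH genes summed to 9692, 10741 and 10486 normalized counts in knockout-labelled libraries and 7475, 7503 and 7477 in control libraries, 1.38 times the control mean. Much of that was Slc26a10 and Slc4a8. Slc26a10 was at 4091 ± 479 against 2923 ± 96.7 (limma adjusted p = 0.0118, and 0.0578 without control replicate 3), and 17.8% of its exon length overlaps B4galnt1. Metal genes summed to 26579, 29507 and 27404 against 23240.5, 23339.7 and 23447, a ratio of 1.19 with no overlap. Much of that difference was Slc39a11 and Slc40a1. Of the 19 metal genes 5 lay wholly above and 6 wholly below the controls, with a median log2 fold change of 0.11. Monocarboxylate genes summed to 3492, 3559 and 3918 against 3185, 2945 and 2948, a ratio of 1.21. The sums of the amino acid (ratio 1.09), glucose (1.15), nucleoside (1.09) and mitochondrial classes (0.99) overlapped between the groups, as did those of the nucleotide sugar class (1.02) and of the vitamin, choline and fatty acid class (1.18). These sums give long and abundant transcripts more weight and were not tested.

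**Figure D5:**
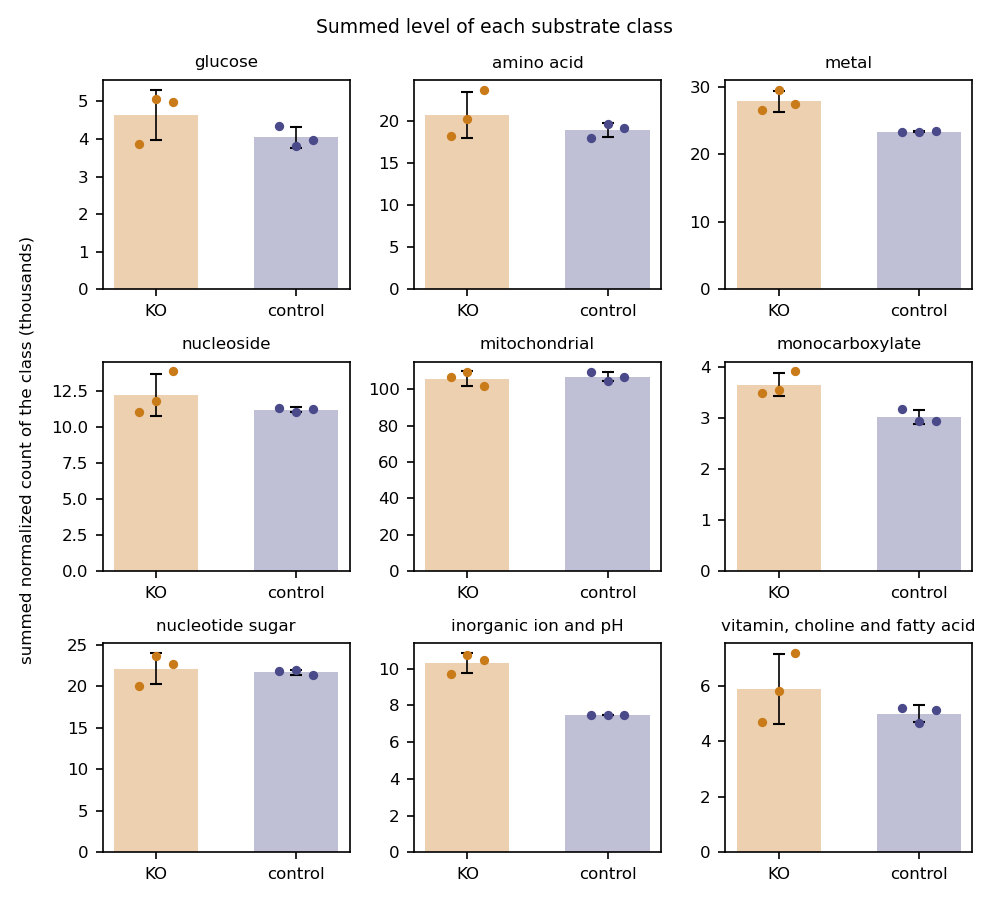
Summed normalized count (y axis, from 0) of the members of 9 substrate classes in each knockout-labelled (KO) and control library. Bars are means, error bars SD (n = 3 each) and points libraries; the KO points lie above all controls in the metal, monocarboxylate and inorganic ion and pH classes.

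The members varied more among the knockout-labelled libraries than among the controls. The same figures over all tested genes are not given here, so this spread is not shown to be particular to the carriers. The median coefficient of variation over members was 18% in knockout-labelled and 10.9% in control libraries, and the SD was the larger in knockout-labelled libraries for 102 of 153 members. Amino acid genes showed the libraries apart, with a median deviation from the control mean of -0.25, -0.24 and 0.27 (log2) in knockout replicates 1, 2 and 3. Glucose genes were at -0.69, 0.28 and 0.08, while the median over all tested genes was 0.01, 0.00 and -0.00. Below the level limit, 4 of the 60 tested Slc genes were higher and 6 lower, beside 11.8% and 15% of all tested genes. The higher ones were Slc25a42, Slc25a47, Slc26a8 and Slc13a5 (9.6, 28.1 and 30.8 against 0 in every control, limma adjusted p = 0.00482). Of the lower ones Slc25a43 had the smallest adjusted p (23.1 ± 3.45 against 109 ± 10.8, 8.87e-04). Also lower were Slc37a3, a relative of the glucose-6-phosphate carrier (0, 0 and 1.14 against 45.3, 29.6 and 19.6, limma adjusted p = 0.00207), and Slc9a7, a Golgi exchanger related to Slc9a9 (2.13, 5.21 and 0 against 70.2, 40.1 and 29.4, 0.0033). Slc13a5, Slc37a3, Slc9a7 and Slc13a2, another of the lower ones, each had a mean under 10 in 1 group. They entered the test through the group where they were higher, so their calls are a description.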

How the data were processed

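RNA of 6 GMP libraries (3 labelled knockout, 3 control) went through SMARTer amplification for small inputs and an Ion Total RNA-Seq library kit with PCR, per the labels' protocols, which mention no molecular identifiers. Tools named in the submitters' processing notes, without roles, are DESeq2, HTSeq, STAR, Picard and BWA 0.7.5a, and the builds are NCBIM37 and mm9. No source used here gives the strand setting of the counting, so reads of overlapping genes may belong to either. Each deposited value, a signal per gene called normalized count here, was a read count that the authors had divided by 1 factor per library, since 100% of nonzero values came out as whole reads when divided by the value of 1 read (0.8885 to 1.1419), within 0.01 of a read. The 5 rows naming no gene (74.8 to 77.1% of all listed reads, including 26.8 to 28.8% aligned to several places) were left out of library sizes and tests. Symbols and exon lengths came from GENCODE M21 (GRCm38, another build), which named 32897 of 37620 gene IDs, and annotation coordinates were not joined to the files.

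Genotypes were compared in R 4.3.3 by limma 3.58.1, with its trended variance prior, on log2(value + 1) for genes with a mean of at least 10, 2-sided, Benjamini-Hochberg adjusted over all 14391. Fold changes are on that scale, where the added 1 shrinks those of low genes. They can still be larger than the log2 fold changes fitted to whole reads by edgeR with TMM factors (Slc27a3, 3.81 against 3.58). They can also be smaller (Slc46a3, -2.21 against -2.27). SD is over n = 3 libraries. edgeR 4.0.16 and DESeq2 1.42.0 on the recovered whole reads, other pseudocounts, filters and scalings, a replicate block and leaving out each library were alternatives. edgeR, with TMM factors, called 1686 genes higher and 2067 lower over all genes, and limma 1695 and 2163. The fit was tested on simulated counts. The members, classes, lists and the rule for named genes were chosen with earlier results of these data known. The rule took, among called genes without overlap, the 3 largest changes each way in the glucose, amino acid, metal, nucleoside and mitochondrial classes and 1 each way in the others, the 2 most abundant genes per kb in those 5 classes, a fixed list of known carriers, and genes at the level limit. Other genes were named after their values were seen.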

Additional observations from a re-analysis of the deposited data

How the results depend on the processing

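Of the 48 called members, 48 were called in the same direction by edgeR with TMM factors and by DESeq2, 47 with a filter at a mean of 1 and 45 with the replicate number as a block. Over the 9 settings other than leaving out a library, 23 to 28 members were higher and 24 to 28 lower. With a library left out, counts ran from 18 to 31 higher and from 15 to 30 lower, the lowest lower count being without control replicate 3, and fewer samples entered each such fit. The median log2 fold change then ran from 0.09 to 0.17 for metal, -0.10 to 0.01 for mitochondrial, -0.13 to -0.00 for all members, -0.24 to 0.01 for amino acid, -0.41 to 0.11 for glucose and -0.03 to 0.19 for inorganic ion and pH carriers. Over the 51 members that the rule named, 0 changed direction, and 23 comparisons lost and 19 gained a call. Of the other members in the text, some that were not called changed sign with some library left out. Among these, Slc38a1 (-0.05) reached 0.06, Slc36a1 (-0.19) reached 0.04, Slc20a1 (0.17) reached -0.03 and Slc30a5 (-0.03) reached 0.09. Scalings moved the median of all genes by at most 0.01.

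Same-numbered libraries did not deviate together (r = -0.104, 0.042 and -0.058), which gave no sign of pairing by replicate number. These values cannot exclude a pairing, and the labels name none. With the replicate block 23 members were higher and 24 lower, and not every library correlated best with its own number.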
